A study of Mus musculus with 24 samples.

Results

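The change between day 1 and day 4 after muscle injury was followed in muscle stem cells of L2A-Pax7CreER mice, called KO below. It was measured by bulk RNA sequencing in 4 libraries per day, 8 of the 24 libraries of the series, and a gene was tested if its value was at least 1 in at least 4 of these 8, which left 13596 of 17111 genes. All 8 libraries came from muscle injected with 50 µL of 10 µM cardiotoxin, a venom peptide that destroys myofibres and spares the stem cells. In the KO genotype a Cre recombinase driven by Pax7, a gene active in muscle stem cells, is directed at Lamp2a, and what activates the Cre is not given in the sources used here. The comparison asks how the knockout cells move from the first day of injury to the fourth. Libraries of L2A-WT mice at the same days, 4 each and called WT, were used only to test where the KO change differed, and the titles name Pax7CreER for KO alone, so an effect of the Cre allele and one of Lamp2a loss cannot be told apart. The labels give no age. Whether the 4 replicates were 4 animals is not stated there, so the p-values cover the spread among libraries, which may be technical.

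Muscle stem cells lie quiescent under the basal lamina of the myofibre. After damage they leave quiescence, divide as Myod1-expressing myoblasts and then either fuse into new fibres under Myog or return to the stem cell state marked by Pax7. Chaperone-mediated autophagy is a route of protein breakdown in which the chaperone Hspa8 carries single proteins to the lysosome, where the Lamp2a receptor takes them up. Cells that lose a route of protein disposal can call on others, among them the heat shock chaperones, the proteasome, the unfolded protein response of the endoplasmic reticulum and the oxidative stress response run by Nrf2.

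The deposited values are normalised read counts, scaled per library, and the KO libraries held 20.23 to 22.47 M counted reads at day 1 and 14.05 to 17.38 M at day 4. Fold changes below are from limma on log2(value + 1), day 4 minus day 1, with a standard error over 4 libraries per group, two-sided, adjusted by Benjamini-Hochberg over all genes tested, with a threshold of 0.05. Fold values in linear terms are ratios of the 2 group means. Libraries of one day resembled each other more at day 1 (correlations over genes of 0.961 to 0.968) than at day 4 (0.869 to 0.899), and across days the correlations were 0.696 to 0.746. The day 4 libraries differed in what else they held. Replicate 3 had the highest summed level of fibro-adipogenic and Schwann cell markers, and results on those genes are given with and without it.

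Measures of RNA composition moved with the day. Reads from the mitochondrial genome made up 3.77 to 6.13% of each KO library at day 1 and 43.2 to 47.9% at day 4, against 2.2 to 3.68% and 28 to 31.4% in WT. Among 11703 protein-coding genes, the median log2 fold change rose with exonic length, from −1.12 in the shortest of 10 equal classes (median 1377 bases) to 0.84 in the longest (median 12843 bases), and in WT from −0.83 to 0.84. Genes annotated as TEC, a class of transcripts awaiting experimental proof, rose in 503 of 623 cases and fell in 11. The part of these measures in the results below was not tested. Counts are also given, under the word rescaled, after the libraries were scaled to an equal sum outside the mitochondrial genome, and for some groups after values were centred within classes of exonic length. In bulk samples, fewer cells of a type and less RNA per cell cannot be told apart.

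**Figure D1:**
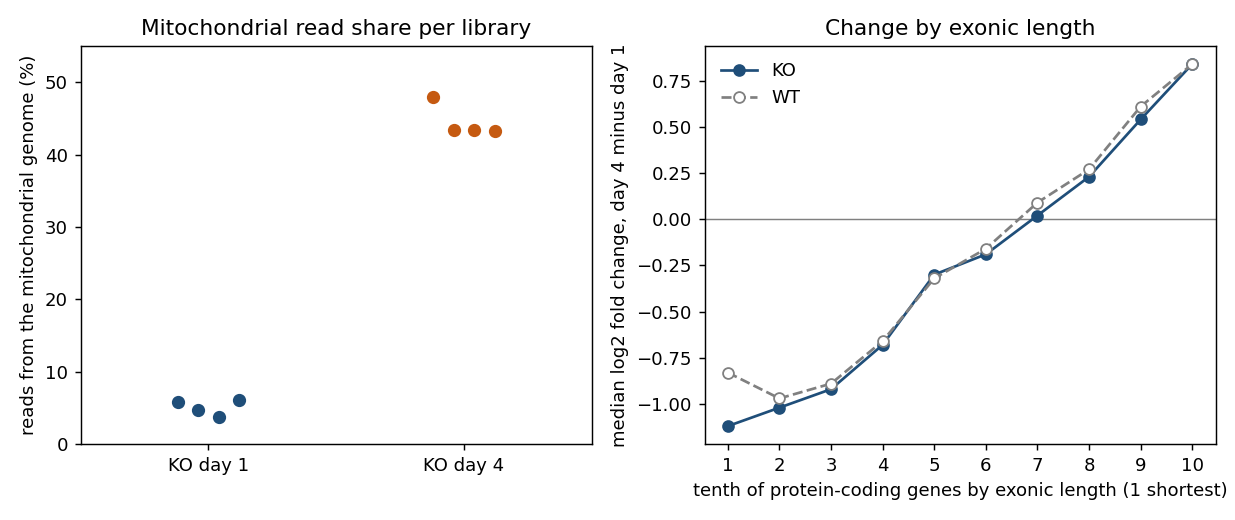
Left, the share of counted reads from the mitochondrial genome (percent) in each of the 8 KO libraries, 4 per day, one point per library. Right, the median log2 fold change (day 4 minus day 1) of protein-coding genes in 10 classes of exonic length, in KO and in WT. The KO share lies between 3.77 and 6.13% at day 1 and between 43.2 and 47.9% at day 4, and both genotypes climb from short to long genes.

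Lamp2, the targeted gene, was examined first. Its whole-gene value sums all splice forms, so it cannot show the loss of Lamp2a and checks neither label. Lamp2 (ENSMUSG00000016534) stood at 457, 393, 422 and 290.3 on day 1 and at 154, 249, 266 and 217 on day 4. All 4 day 4 libraries lay below all 4 day 1 libraries, and the log2 fold change was −0.82 ± 0.18 (limma, adjusted p = 0.00185), a fall under the deposited scaling. The change was −0.19 and did not pass after scaling outside the mitochondrial genome, and under quantile normalization Lamp2 rose by 0.46. In WT Lamp2 changed by −0.99 ± 0.15 and the difference of the changes did not pass the test (adjusted p = 0.707).

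Of the 13596 genes, 4000 (29.4%) rose and 4399 (32.4%) fell from day 1 to day 4 (limma), so that 61.8% passed in one direction or the other. Counts of a gene group as deposited are read below against these shares. Scaled to reads outside the mitochondrial genome, 5595 rose and 2923 fell, and the share of rises among the calls went from 47.6 to 65.7%. Under quantile normalization 3627 of the 13596 rose and 3792 fell, and with length-centred values 3881 and 3929. Counts of a group under each alternative belong beside these numbers, so a shift in a group can be that of all genes. The median log2 fold change over all genes was −0.04 as deposited and 0.52 after that scaling. Changes of more than 4-fold passed in 1330 genes that rose and 1336 that fell. Day 4 lay above day 1 in every library for 3429 genes (25.2%) and below it for 3969 (29.2%). For 809 of the genes tested, all 4 day 4 libraries and no day 1 library reached a value of 1, and for 107 the reverse held. Below, a list member needed the libraries of a day, or passed only with them, where fewer than 4 libraries of the other day reached 1. A member can then need both days. That rule is looser than that of the 809 and 107 genes, which are no background for it.

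**Figure D2:**
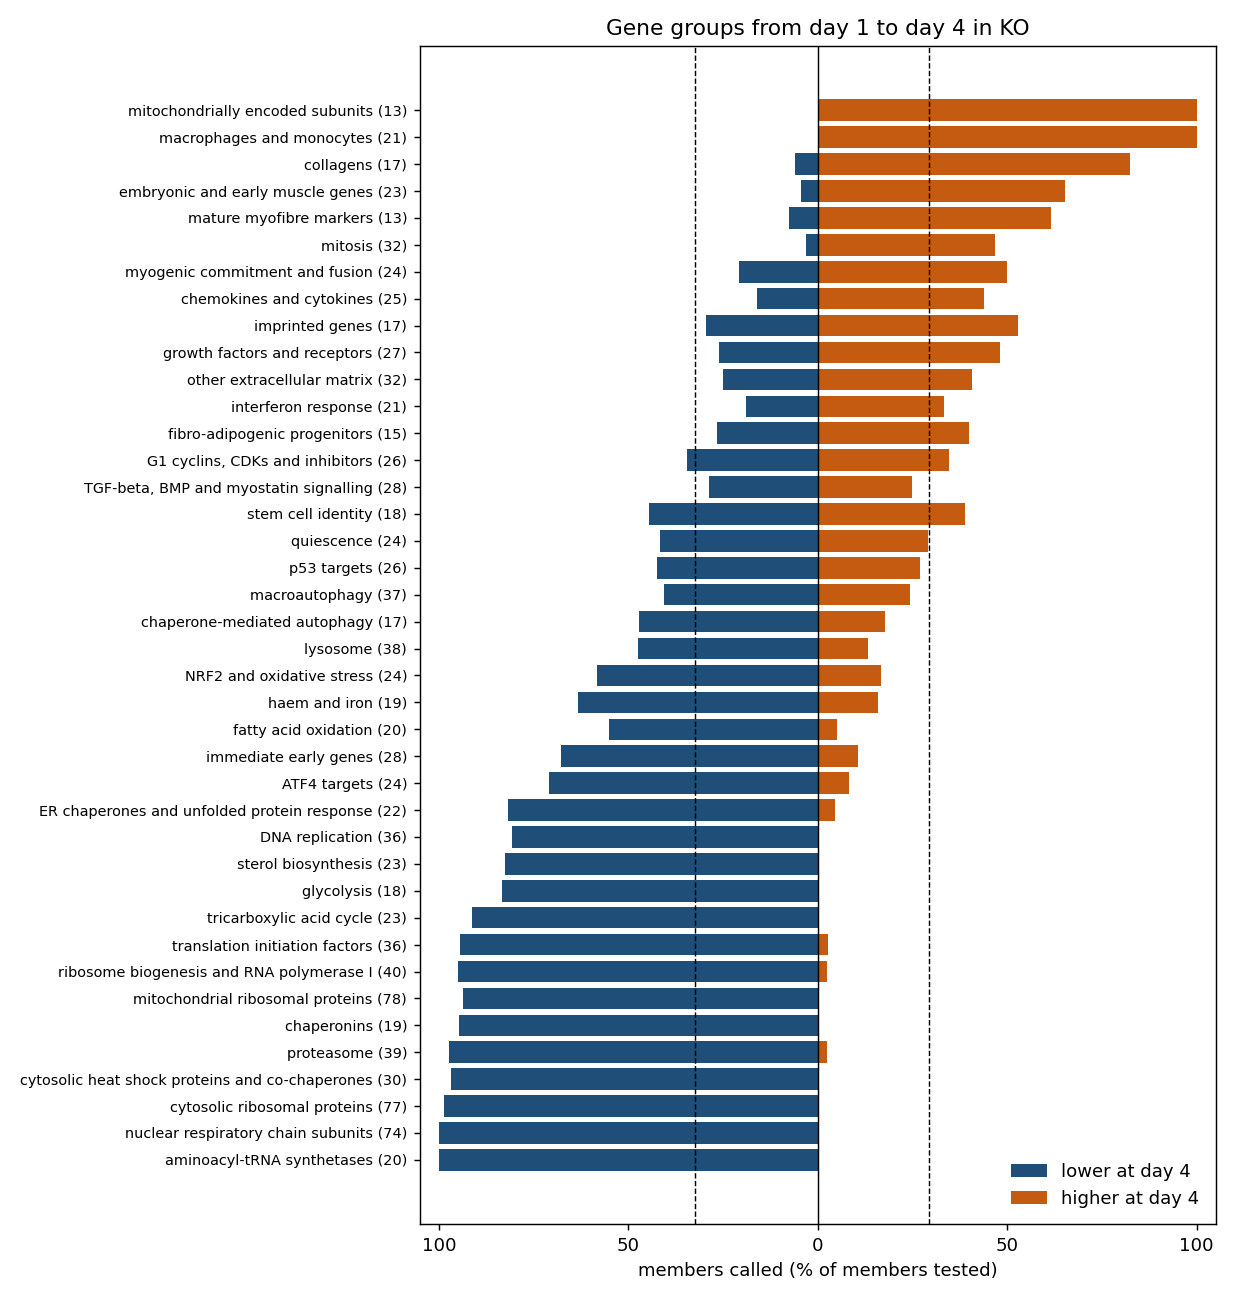
Members of the 40 gene groups with at least 13 members tested that were called higher (right, percent of members tested) or lower (left, percent) at day 4 than at day 1 in KO, limma adjusted p under 0.05, with the number of members tested beside each name. Dashed lines mark the shares over all genes tested, 32.4% lower and 29.4% higher. Chaperone, proteasome, ribosome and nuclear respiratory chain groups lie almost wholly on the lower side, and macrophage, mitochondrially encoded, collagen and early muscle groups on the higher side. The filter on low values was passed only with the day 4 libraries by 18 of 21 macrophage, 12 of 23 early muscle and 4 of 17 collagen members. The place of these 3 groups is thus in part fixed by the filter.

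Regulators of the stem cell and of myogenic commitment moved in different directions. Myod1, the transcription factor of activated myoblasts, stood at 1591, 1907, 2191 and 1583 on day 1 and at 62.2, 32.6, 57.8 and 47.7 on day 4. No day 4 library came near the lowest of day 1, a 36.3-fold fall (−5.18 ± 0.19 on the log2 scale, limma adjusted p = 1.5e-09). Myf5, the other early myogenic factor, fell from 125 ± 17.3 (mean ± SD, n = 4) to 22.4 ± 1.24, with no overlap. Pax7 went the other way. It stood at 28.5, 30.2, 37 and 32.4 on day 1 and at 62.2, 106, 96.6 and 76.7 on day 4, all 4 day 4 libraries above day 1, a rise of 1.37 ± 0.20 (adjusted p = 8.19e-05). In WT, Pax7 had means of 85.2 ± 10.1 and 71.3 ± 6.51 at the 2 days, so the KO change was higher by 1.62 ± 0.23 (adjusted p = 0.000158). The level of KO cells before injury was 75.4 ± 12.3, between the 2 KO days and nearer to day 4.

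Genes of commitment and fusion were mixed. Myog, which starts terminal differentiation, stood at 11, 5.16, 0.0261 and 2 on day 1 and at 15.4, 10.1, 12.9 and 32.9 on day 4. One day 1 library lay within the range of day 4, and the rise of 2.14 ± 0.66 passed limma's test (adjusted p = 0.0134) but not edgeR's or DESeq2's on recovered reads, which gave 2.10 and 2.15. Of 24 tested members of a list on commitment and fusion, 12 rose and 5 fell, with a median of 0.67 (15 and 4 after scaling outside the mitochondrial genome). The day 4 libraries were needed by 5 of the 24 to pass the filter on low values, and those of day 1 by 2. Eya4 and Tcf12, partners of myogenic transcription factors, rose by 1.78 ± 0.29 and 1.77 ± 0.13. Msc, a repressor of Myod1 activity, fell by 3.33 ± 0.28. Mymk, the fusion protein of the myoblast membrane, stood at 20.3, 0.168, 0.0261 and 0.0802 on day 1 and at 1.85, 14.4, 2.9 and 8.34 on day 4 and did not pass (adjusted p = 0.174), with day 1 replicate 1 above every other library. Without that replicate it rose by 2.54.

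Among 18 genes of stem cell identity, 7 rose and 8 fell, with a median of −0.48 (8 and 8 rescaled), and quantile normalization turned this to 10 and 6. Chrdl2 and Cd82, surface or secreted markers of the stem cell, fell 16.5-fold and 14.1-fold, and Sdc4, a proteoglycan receptor of the niche, fell 11.4-fold. Itga7, a laminin receptor of muscle stem cells, rose 2.26-fold, from 211 ± 64.6 to 477 ± 53.1. Cdh15, a cadherin between stem cell and fibre, and Fgfr4 had log2 fold changes of −0.18 ± 0.25 and 0.12 ± 0.21, with overlapping groups, and neither passed, but Fgfr4 passed with a rise of 0.75 rescaled and of 0.81 under quantile normalization. Fgfr4, a growth factor receptor of myogenic cells, had KO means of 74.9 ± 23 and 78.8 ± 4.59, whereas it went from 229 ± 76.6 to 76.7 ± 11.2 in WT, and the difference of the changes was 1.65 ± 0.30 (adjusted p = 0.00155).

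Of 24 genes tied to quiescence 7 rose and 10 fell (9 and 8 rescaled, 7 and 13 with length-centred values). Calcr, the receptor that holds stem cells in quiescence, stood at 38.9, 20.6, 27.9 and 27 on day 1 and at 0.353, 1.03, 1.54 and 0.552 on day 4, against 262 ± 51.4 in uninjured KO cells. Every day 4 library was below every day 1 library, and the log2 fold change was −3.99 ± 0.37 (adjusted p = 1.72e-06). Chodl, a membrane lectin, and Cd34, a sialomucin of quiescent cells, fell, with log2 fold changes of −3.35 ± 0.32 and −3.15 ± 0.20. In WT the changes were −6.06 ± 0.25 and −5.03 ± 0.25, and the differences of 2.71 ± 0.36 and 1.88 ± 0.36 passed the test (adjusted p = 7.99e-05 and 0.00214). Chodl had day 1 means of 234 ± 22.2 in KO and 1231 ± 62.2 in WT, and day 4 means of 25.1 ± 16.9 and 17.5 ± 2.06. For Cd34 they were 210.5 ± 15.3 and 484 ± 45.4 at day 1, and 23.6 ± 6.64 and 15.2 ± 8.38 at day 4. The genotypes thus stood apart mainly at day 1. Cdkn1c, a cyclin-dependent kinase inhibitor, and Gas1, a growth arrest protein, rose 5.9-fold and 4.08-fold. Of 12 genes of the Notch pathway, which maintains quiescence, 3 rose and 3 fell (5 and 2 rescaled, 2 and 4 with length-centred values). The target genes Hey1 and Heyl fell (−2.95 ± 0.27 and −1.52 ± 0.21) while the ligand Dll1 and the receptor Notch2 rose by 3.13 ± 0.42 and 1.17 ± 0.29. With length-centred values Notch2 changed by 0.56 and did not pass.

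**Figure D3:**
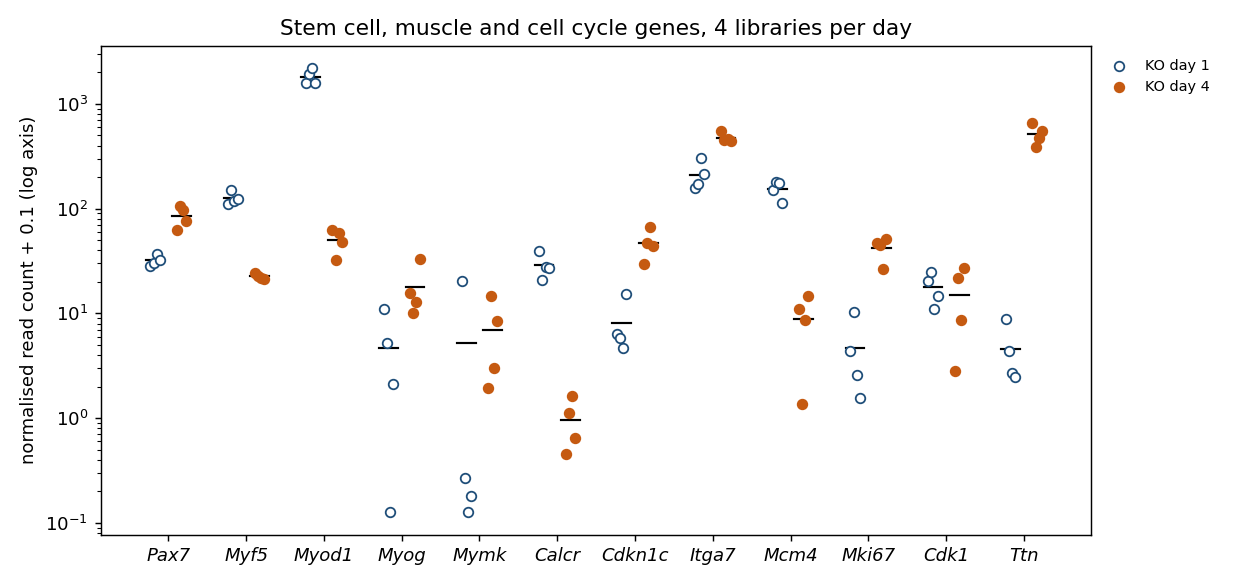
Normalised read count (value + 0.1, log axis) of 12 genes in each KO library, open circles for day 1 and filled circles for day 4, with a bar at each group mean. Myod1, Myf5 and Calcr separate with day 4 below day 1, Pax7, Mki67, Ttn and Cdkn1c with day 4 above, and the groups of Myog, Mymk and Cdk1 overlap.

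Genes of DNA replication and of mitosis moved in opposite directions. Of 36 genes of DNA replication none rose and 29 fell, with a median of −1.93, and after scaling outside the mitochondrial genome 1 rose and 25 fell. The day 1 libraries were needed by 7 of the 36 to pass the filter on low values, and those of day 4 by 1. Mcm4, a subunit of the replicative helicase, stood at 150.5, 178, 175 and 112 on day 1 and at 10.9, 1.27, 8.5 and 14.6 on day 4, without overlap, and fell by 4.26 ± 0.48 (limma, adjusted p = 8.28e-06). Mcm2 of the same complex and Rfc4, which loads the sliding clamp, fell 13.2-fold and 12.1-fold. Mitosis genes rose instead, 15 of 32 with 1 fall and a median of 0.90. To pass the filter on low values, 10 of the 32 needed the day 4 libraries and 9 those of day 1, so the tally is in part fixed by the filter. Mki67, a protein of dividing cells, stood at 4.25, 10.2, 2.48 and 1.47 on day 1 and at 46.6, 44.7, 26.5 and 51.7 on day 4, a rise of 3.15 ± 0.45 (adjusted p = 5.96e-05). Cenpa and Cenpe, of the centromere and kinetochore, rose 16.4-fold and 10.6-fold.

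Not every mitotic gene took part. Cdk1, the kinase that drives entry into mitosis, stood at 20.2, 24.8, 10.8 and 14.7 on day 1 and at 2.71, 21.6, 8.64 and 27 on day 4 (adjusted p = 0.417), and Ccnb1, its cyclin, stood at 1.92, 3.1, 3 and 3.66 on day 1 and at 0.353, 17.1, 2.49 and 12.7 on day 4 (adjusted p = 0.474). In both, day 4 replicate 1 was far below replicates 2 and 4. Aurkb, a mitotic kinase, fell by 0.96 ± 0.35 from a mean of 1.88 ± 1.01, a call lost without any 1 of 5 libraries and in edgeR (−1.90). In WT, replication genes had a median of −2.01 and mitosis genes one of 1.07. A test of the difference between KO and WT called none of the 36 replication genes and 1 of the 32 mitosis genes, against 9.8% of all genes.

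Of 26 G1 regulators, 9 rose and 9 fell (11 and 6 rescaled). The filter on low values was passed by 4 of the 26 only with the day 4 libraries and by 2 only with those of day 1. Ccnd1, the cyclin that answers growth factors, fell 10.4-fold, from 146 ± 16.4 to 14 ± 3.67. Cdkn2d, an inhibitor of Cdk4, fell 5-fold, and Cdkn2b, another, rose 12.3-fold. E2f8, a repressing E2f factor that acts late in S phase, rose from 0.344 ± 0.569 to 12.2 ± 2.45. Cdkn2b, with a day 1 mean of 0.617 ± 0.32, and E2f8 are among the 4. Their rise is thus in part fixed by the filter, and their folds rest on low day 1 values. Cdkn1a, the p21 inhibitor, stood at 528, 477, 579.5 and 522 on day 1 and at 284, 278, 282 and 302 on day 4. The groups did not overlap and it fell by 0.87 ± 0.10 under the deposited scaling, but by 0.23 without passing after scaling outside the mitochondrial genome, and rose by 0.47 under quantile normalization. In WT it went from 297 ± 50.2 to 352 ± 31.2, and the KO change differed by −1.13 ± 0.16 (adjusted p = 0.000162).

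The heat shock chaperones fell as a block. Of 30 cytosolic heat shock proteins and co-chaperones none rose and 29 fell, against 32.4% of all genes, with a median of −2.40. With the mitochondrial genome left out of the scaling 27 fell, and with length-centred values 29. Hspa1b, the stress-inducible Hsp70, stood at 829.7, 817, 1312 and 659 on day 1 and at 35.9, 17.2, 11.9 and 12.6 on day 4, a 46.6-fold fall without overlap (−5.56 ± 0.31, adjusted p = 1.91e-08). Its near-identical neighbour Hspa1a fell 57.8-fold, and reads may be split between the pair, so their separate values are uncertain. Hspa8, the chaperone that selects substrates for chaperone-mediated autophagy, stood at 9702, 8168, 8757 and 8152 on day 1 and at 768, 752, 980.5 and 836 on day 4. It fell 10.4-fold (adjusted p = 7.65e-10). Bag2, a co-chaperone of Hsp70, fell from 67.7 ± 14.2 to 4.36 ± 6.71, and Hsp90aa1 and Hsp90ab1, the cytosolic Hsp90 pair, fell, by log2 changes of −2.60 ± 0.12 and −2.14 ± 0.09.

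The folding machines for newly made protein followed. Of 19 chaperonins none rose and 18 fell (median −2.49). Cct7 and Cct5, subunits of the cytosolic ring that folds actin and tubulin, fell 11.9-fold and 9.02-fold, and Hspd1, the mitochondrial ring, fell 8.7-fold. Heat shock genes had a median change of −1.72 in WT, and 15 of 30 had a lower change in KO by the test of the difference, where 6.85% of all genes did. Hspa1b differed by −2.22 ± 0.42 (adjusted p = 0.00208) and Hspa8 by −0.71 ± 0.12 (adjusted p = 0.000987), which turned to 0.26 under quantile normalization. For Hspa8 the day 1 means were 8695 ± 728 in KO and 4992 ± 157 in WT, and the day 4 means 834 ± 104 and 783 ± 45.6.

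Promoter windows of 5 genes are printed here because their groups moved together, each chosen for holding a motif known for its group. They run from 250 bases before to 50 after the start of the gene, 5′ to 3′ on its own strand, from RefSeq on GRCm38.p6, with the matches of the named motif in capitals on either strand. The heat shock element, searched as GAANNTTC, lay 104 bases before the start of Hspa1b (chr17:34959189-34959488, minus strand) and 84 before that of Hspe1 (chr1:55087898-55088197, plus strand), the partner of Hspd1, which fell 6.38-fold.
Hspa1b: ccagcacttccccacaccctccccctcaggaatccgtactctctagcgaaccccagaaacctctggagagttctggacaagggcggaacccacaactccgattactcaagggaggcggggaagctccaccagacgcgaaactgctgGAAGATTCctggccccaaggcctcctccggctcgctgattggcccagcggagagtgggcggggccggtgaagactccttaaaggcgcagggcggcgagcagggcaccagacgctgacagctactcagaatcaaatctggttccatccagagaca
Hspe1: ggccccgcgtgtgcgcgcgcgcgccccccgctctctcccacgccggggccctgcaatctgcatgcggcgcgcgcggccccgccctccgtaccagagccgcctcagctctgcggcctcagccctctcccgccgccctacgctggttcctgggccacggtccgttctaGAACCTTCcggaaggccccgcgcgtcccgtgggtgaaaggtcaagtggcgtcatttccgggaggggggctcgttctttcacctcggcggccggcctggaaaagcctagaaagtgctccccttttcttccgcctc
Asns (chr6:7693160-7693459, minus strand), an Atf4 target described below, holds the amino acid response motif TGATGNAA 23 bases before its start.
Asns: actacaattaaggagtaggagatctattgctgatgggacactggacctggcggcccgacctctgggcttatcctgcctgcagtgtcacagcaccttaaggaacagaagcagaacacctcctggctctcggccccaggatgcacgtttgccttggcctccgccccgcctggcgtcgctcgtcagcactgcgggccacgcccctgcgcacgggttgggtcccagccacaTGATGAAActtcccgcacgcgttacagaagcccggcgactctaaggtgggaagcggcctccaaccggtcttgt
Mki67 (chr7:135716330-135716629, minus strand) and Top2a (chr11:99024140-99024439, minus strand), the mitotic topoisomerase that rose 4.36-fold, each hold 2 matches of TTTGAA, the cell cycle homology region of mitotic promoters, at 116 and 98 bases before the start of Mki67 and at 179 and 23 before that of Top2a.
Mki67: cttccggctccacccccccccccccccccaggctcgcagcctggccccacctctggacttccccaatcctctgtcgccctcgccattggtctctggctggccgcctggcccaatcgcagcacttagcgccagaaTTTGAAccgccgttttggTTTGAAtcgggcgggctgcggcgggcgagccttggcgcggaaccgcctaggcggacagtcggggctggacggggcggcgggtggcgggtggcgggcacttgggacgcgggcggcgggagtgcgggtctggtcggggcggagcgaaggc
Top2a: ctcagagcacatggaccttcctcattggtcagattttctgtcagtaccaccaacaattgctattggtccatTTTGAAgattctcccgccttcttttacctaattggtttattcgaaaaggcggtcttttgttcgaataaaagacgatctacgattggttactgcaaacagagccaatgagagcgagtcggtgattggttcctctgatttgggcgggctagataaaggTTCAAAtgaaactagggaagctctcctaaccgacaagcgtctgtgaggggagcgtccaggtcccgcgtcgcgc
Over the lists, GAANNTTC was found in 11 of 24 heat shock genes with a window (45.8%), against 7.21% of the 9684 tested genes with one and 9.04% of all 27025. TGATGNAA lay in 8 of 22 Atf4 targets (36.4%) and 5 of 12 aminoacyl-tRNA synthetases (41.7%), against 2.85% of tested genes and 4.51% of all. TTTGAA lay in 20 of 27 mitosis genes (74.1%), against 14.5% and 20.2%. These lists gather in part known targets of the factors that bind such motifs, and a match is a description of the letters and not of binding. Over all genes called, GAANNTTC lay in 7.65% of those that rose and 7.41% of those that fell, TTTGAA in 16.1% and 13.4%, and TGATGNAA in 3.6% and 2.48%.

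Proteasome genes fell almost without exception, 38 of 39 with a median of −2.13 (37 after scaling outside the mitochondrial genome, 38 with length-centred values). Psmd3 and Psmd14 of the regulatory lid and Psmc2 of its ATPase ring fell 8.13-fold, 7.45-fold and 7.84-fold. The one that rose was Psme4, an alternative activator, from 101 ± 9.89 to 158 ± 35.1, and with length-centred values it changed by 0.28 and did not pass. Genes of the endoplasmic reticulum response fell in 18 of 22 cases with 1 rise (14 with 2 rises rescaled). Hspa5, its main chaperone, stood at 2558, 2785, 3099 and 2614 on day 1 and at 225, 325, 350.2 and 273 on day 4, without overlap, a log2 fold change of −3.25 ± 0.14 (adjusted p = 3.18e-09). Sdf2l1, an Hspa5 cofactor, fell 43.2-fold, and Herpud1, of protein export for breakdown, 6.93-fold.

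Targets of Atf4, the transcription factor of the amino acid and integrated stress response, fell in 17 of 24 cases and rose in 2, with a median of −1.94 (14 and 5 after scaling outside the mitochondrial genome). Asns, which makes asparagine and whose promoter is printed above, stood at 131, 76.8, 108 and 66.7 on day 1 and at 5.3, 3.08, 1.26 and 2.11 on day 4. It fell 32.5-fold (adjusted p = 2.84e-07), where WT went from 93.8 ± 18.9 to 30.5 ± 3.63, and the changes differed by −3.09 ± 0.38 (adjusted p = 3.73e-05). Gdf15, a secreted stress hormone, stood at 379, 390.3, 454 and 427 on day 1 and at 24, 21.3, 43.5 and 26.2 on day 4, a 14.3-fold fall, whereas WT had means of 15.6 ± 2.15 and 23.8 ± 3.88 and the difference of the changes was −4.43 ± 0.27 (adjusted p = 5.89e-09). Shmt2, of mitochondrial one-carbon metabolism, fell 9.29-fold. Slc7a11, the cystine importer, rose by 1.42 ± 0.42 (adjusted p = 0.0104) with overlapping groups, and by 0.42 without passing in length-centred values. In all 10 of the 24 targets had a lower change in KO than in WT and none a higher one, where 6.85% and 2.95% of all genes did.

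The Nrf2 response, which guards against oxidants, split. Of 24 genes 14 fell and 4 rose (12 and 6 after scaling outside the mitochondrial genome, 8 and 5 under quantile normalization). Hmox1, which breaks down haem, stood at 1676, 1333, 1733 and 1600 on day 1 and at 411, 396, 409.9 and 259 on day 4, without overlap, a 4.3-fold fall (limma, adjusted p = 1.8e-07). In WT its means were 45.4 ± 4.75 at day 1 and 218 ± 33.5 at day 4, and the changes differed by −4.35 ± 0.21 (adjusted p = 2e-10). Gstm1, a glutathione transferase, fell 16-fold, from 1650 ± 161 to 103 ± 11.8. Sqstm1, the p62 cargo receptor of autophagy, fell 5.98-fold in KO, and the change differed from that in WT by −1.73 ± 0.15 (adjusted p = 4.73e-07). Gclc, the rate-limiting enzyme of glutathione synthesis, stood at 22.4, 24.1, 27.3 and 35.8 on day 1 and at 217, 283, 272 and 288 on day 4, and Abcc1, a glutathione conjugate pump, rose 3.06-fold. The Gclc groups lay far apart, and the rise of 3.24 ± 0.18 passed (adjusted p = 1.77e-08).

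Among 19 genes of haem and iron handling 12 fell and 3 rose (8 and 4 rescaled). The biliverdin reductases Blvra and Blvrb fell 4.09-fold and 3-fold. Slc40a1, the iron exporter ferroportin, which macrophages also carry, rose 7.71-fold. Of 26 p53 targets and regulators 11 fell and 7 rose. Rescaled, 7 fell and 10 rose, where 2923 of all 13596 genes fell and 5595 rose. Trp53 itself fell from 471 ± 15.6 to 55 ± 15.6, and the death receptor Fas fell 12.8-fold, while Polk, a bypass polymerase, and Zmat3, an RNA-binding protein, rose 6.92-fold and 5.72-fold.

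**Figure D4:**
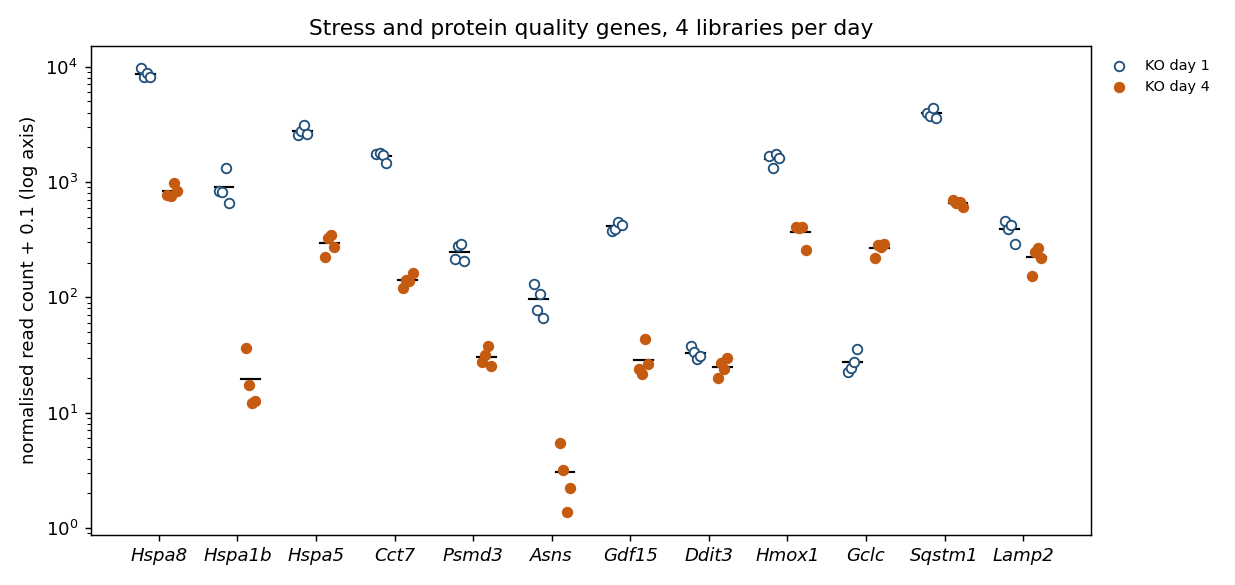
Normalised read count (value + 0.1, log axis) of 12 stress and protein quality genes in each KO library, open circles for day 1 and filled circles for day 4, with a bar at each group mean. Day 4 lies below day 1 without overlap for every gene drawn except Gclc, which lies above, and Ddit3, whose groups overlap.

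Chaperone-mediated autophagy, the pathway that needs Lamp2a, was covered by a list of regulators, chaperones and a lysosomal protease. Of its 17 genes 8 fell and 3 rose, and after scaling outside the mitochondrial genome 6 and 4. Hspa8, Hsp90aa1 and Hsp90ab1 are among the 8. Hip1, a clathrin-binding partner of huntingtin whose name resembles that of the Hsp70 cofactor St13, and Ncor1, a nuclear receptor corepressor, rose 3.63-fold and 2.23-fold. St13 itself, also in the list, fell 2.86-fold (−1.52 ± 0.15), and without Hip1 2 of 16 rose. The call of Ncor1 was lost with length-centred values (0.15). Tfeb, the regulator of lysosomal genes, stood at 6.12 ± 2.91 and 5.56 ± 0.526 and did not pass (adjusted p = 0.975). In WT the 17 genes had a median of −0.11, against −0.61 in KO. By the test of the difference 5 of them had a lower change in KO and none a higher one, where 6.85% and 2.95% of all genes did.

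Of 38 lysosomal genes 18 fell and 5 rose, a split that became 12 and 12 after scaling outside the mitochondrial genome and 10 and 13 under quantile normalization. Over all 13596 genes the first of these gave 2923 falls and 5595 rises, and the second 3792 and 3627. Ctsz, a cathepsin, and Cd63, a membrane protein, fell 6.87-fold and 4.41-fold. Ctss, a cathepsin of macrophages, rose to 188 ± 23.5 from 0.862 ± 0.627, with the macrophage markers described below, and Psap, a precursor of lipid-degrading activators, rose 4.47-fold. Macroautophagy, in which whole membranes close around cargo, had 15 falls and 9 rises in 37 genes (11 and 11 after the same scaling). The fallers were led by Gabarapl1 (6.46-fold), Sqstm1, described above (5.98-fold), and Gabarapl2 (4.08-fold), of which Gabarapl1 and Gabarapl2 coat the membrane. The risers were led by Rb1cc1 and Wipi1, which start it (3.13-fold and 3.54-fold). A lower change in KO than in WT was called for 11 of the 37 and a higher one for 1, where 6.85% and 2.95% of all genes had one.

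The mitochondrial genome and the nuclear genes of the same complexes moved in opposite directions. All 13 protein-coding genes of the mitochondrial genome rose, with a median of 3.05, and all 74 nuclear subunits of the respiratory chain and ATP synthase fell, with a median of −1.38. Scaled to reads outside the mitochondrial genome, 60 of the 74 still fell and none rose, with length-centred values 62, and under quantile normalization 39 fell and 6 rose. The cytochrome oxidase subunit mt-Co1 stood at 9774, 7690, 6044 and 9930 on day 1 and at 108855, 90632, 90671 and 90939 on day 4 (normalised read counts). All 4 day 4 libraries lay far above day 1, an 11.4-fold rise (adjusted p = 3.4e-09). Atp5b and Cyc1, nuclear subunits of ATP synthase and complex III, fell 7.98-fold and 7.86-fold. In WT the mitochondrial genes had a median of 3.02 and none was called by the test of the difference. A lower change in KO was called for 25 of the 74 nuclear genes, where 6.85% of all genes had one.

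Carbon metabolism fell alongside. Of 18 glycolytic genes 15 fell and none rose (12 after scaling outside the mitochondrial genome), led by Ldha, lactate dehydrogenase (at 2607, 2943, 3015 and 2611 on day 1 and at 244, 252, 224 and 260.5 on day 4). All 4 day 4 libraries were close together and far below day 1, an 11.4-fold fall (adjusted p = 4.55e-10). Eno1 and Aldoa fell 7.87-fold and 6.92-fold, and Eno1 shares reads with a near-identical copy, so its value is uncertain. The KO change was lower than that of WT for 11 of the 18, where it was for 6.85% of all genes. The difference was −0.73 ± 0.17 for Ldha (adjusted p = 0.00805). That of Ldha did not pass under quantile normalization, at −0.07, or in limma without the mean-variance trend. Of 23 genes of the tricarboxylic acid cycle 21 fell (20 with 1 rise rescaled), led by Mdh2 (7.47-fold), and of 20 genes of fatty acid oxidation 11 fell and 1 rose, Cpt1a, the gate of fat entry into mitochondria (2.18-fold). After scaling outside the mitochondrial genome, fatty acid oxidation had 5 falls and 5 rises.

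Genes for making protein fell nearly throughout. Cytosolic ribosomal proteins fell in 76 of 77 cases with a median of −1.60 (68 with 1 rise after scaling outside the mitochondrial genome), but under quantile normalization 32 fell and 12 rose, with a median of −0.22. Rplp0 of the ribosomal stalk and Rpl13 fell 6.34-fold and 5.15-fold. Mitochondrial ribosomal proteins fell in 73 of 78 cases, ribosome biogenesis genes in 38 of 40, aminoacyl-tRNA synthetases in 20 of 20 and translation initiation factors in 34 of 36. Rescaled, the falls numbered 56, 33, 16 and 29. Eif5a, which helps the ribosome through difficult sequence, stood at 4829, 4737, 4609 and 4604 on day 1 and at 332, 449.5, 415 and 366 on day 4, a 12-fold fall, and Farsb, which charges phenylalanine tRNA, fell 13.8-fold. Eif4a2, a helicase, was the initiation factor that rose (1.44-fold). Sterol biosynthesis fell in 19 of 23 cases with a median of −2.35 (15 rescaled), led by Idi1 (at 183, 159, 204 and 133 on day 1 and at 8.68, 7.36, 6.18 and 12.4 on day 4). Its groups lay far apart, a 19.6-fold fall.

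Immediate early genes, which respond to acute stimulation of the cell and to tissue dissociation, fell in 19 of 28 cases and rose in 3 (14 and 5 rescaled). Fosl1 and Fos of the AP-1 factor fell 24.6-fold and 8.99-fold, and Ccn1, a secreted matrix protein, 13.8-fold. Dusp5, a phosphatase of Erk, and Klf2 rose 5.43-fold and 5.44-fold at values below 20 in every library.

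Most genes of the early contractile apparatus rose. Of 23 embryonic and early muscle genes 15 rose and 1 fell, with a median of 1.83 (17 and 0 rescaled), and with length-centred values 16 and 1. Of the 23, 12 passed the filter on low values only with the day 4 libraries. Ttn, the giant spring of the sarcomere, stood at 8.8, 4.29, 2.58 and 2.38 on day 1 and at 662, 383, 469 and 552 on day 4, a 114-fold rise (6.66 ± 0.31, adjusted p = 5.74e-09) with no overlap. Neb, the ruler of the thin filament, and Ryr1, the calcium channel of the muscle cell, rose 20.2-fold and 34.1-fold. Chrna1, a subunit of the acetylcholine receptor, fell from 209.7 ± 40.6 to 124 ± 17.8, but not under quantile normalization, where it changed by 0.31, and not after scaling outside the mitochondrial genome (−0.10). With length-centred values the list's median was 2.44.

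Mature fibre transcripts, which can also come from fibre debris, were measured as a separate list. Of 13 tested members 8 rose and 1 fell (9 and 0 rescaled), 7 of them passing the filter only with the day 4 libraries, and the summed level of the 17 in the table was 64.6 to 93.3 at day 1 and 158.9 to 270.6 at day 4. Atp2a1, the fast calcium pump, rose 11.7-fold, and Tnni2 and Tnnc2, fast troponins, 9.39-fold and 6.31-fold. In WT the same sum was 189.4 to 263.4 at day 1 and 250.5 to 305.8 at day 4. The KO change was higher for 11 of 16 members and lower for none, where it was for 2.95% and 6.85% of all genes. It was higher for Tnnc2 by 2.45 ± 0.51 (adjusted p = 0.00442, not passing in the fit over all 24 libraries) and for Ckm, creatine kinase, by 3.61 ± 0.64 (adjusted p = 0.00125). Ckm stood at 2.46 ± 0.917 and 3.75 ± 2.24 in KO, not passing, and at 26.5 ± 5.22 and 2.33 ± 2.16 in WT, so WT at day 1 was the group that stood apart.

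Collagens rose in 14 of 17 cases and fell in 1, with a median of 1.46 (15 and 0 rescaled). To pass the filter on low values, 4 of the 17 needed the day 4 libraries and 1 those of day 1. Col1a2, a chain of fibrillar collagen, stood at 3.19, 4.29, 7.01 and 11.7 on day 1 and at 597, 815, 788 and 524 on day 4. It rose 104-fold (6.60 ± 0.30, adjusted p = 4.6e-09), and Col6a3, of the microfibril network, rose from 1.34 ± 1.58 to 90.7 ± 66.7. Without day 4 replicate 3, 13 collagens rose and 1 fell. Of 32 other matrix genes 13 rose and 8 fell (17 and 3 under quantile normalization, 12 and 10 without day 4 replicate 3). Postn, a matricellular protein of repair, stood at 1.14, 0.264, 0.182 and 6.76 on day 1 and at 133, 245, 291 and 89.1 on day 4, and Thbs1 and Fn1, adhesive glycoproteins, rose 7.65-fold and 7.6-fold. Mmp2, a gelatinase, and Thbs2 fell 4.87-fold and 3.4-fold.

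Markers of other cell types were present at day 4, and their part in the matrix, lysosome and immune results was not tested. Macrophage and monocyte markers rose in 21 of 21 tested cases. Of these, 18 passed the filter on low values only with the day 4 libraries, so the tally is in part fixed by the filter and nothing is read from it. The summed level of the 24 markers in the table was 18.8 to 29.0 at day 1 and 1516 to 1698 at day 4, and 3 of them had no read in any day 1 library. Lyz2, lysozyme, stood at 7.3, 9.05, 2.69 and 8.96 on day 1 and at 602, 603, 555 and 682 on day 4, with no overlap. Ptprc, the CD45 of all white blood cells, had 1 read in the 4 day 1 libraries together and values of 12.4, 14.2, 18.6 and 20.3 at day 4, and Itgam, another defining marker, had 2 reads and then 13.2, 10.8, 7.34 and 16.8. Of 6 genes of dendritic cells and class II antigen presentation 5 rose, led by Cd74 (61.6-fold), and all 6 passed the filter only with the day 4 libraries. The macrophage sum in WT was 10.5 to 34.6 at day 1 and 1774 to 2325 at day 4. The KO change was lower for 2 of the 24 markers and higher for none, where it was for 6.85% and 2.95% of all genes. Nothing is read from this count.

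The other lineages were less uniform. Of 15 markers of fibro-adipogenic progenitors, the matrix-making cells of muscle, 6 rose and 4 fell (8 and 3 rescaled), and 5 and 4 without day 4 replicate 3. The day 4 libraries were needed by 5 of the 15 to pass the filter on low values, and those of day 1 by 1. Dcn stood at 30.2, 10.01, 40.7 and 249.9 on day 1 and at 117, 117, 555 and 78.9 on day 4 and did not pass (adjusted p = 0.0577), and Pdgfra, the defining receptor, stood at 0.472, 0.024, 0.6 and 11.6 on day 1 and at 4.99, 9.9, 12.1 and 1.46 on day 4 (adjusted p = 0.095). Day 1 replicate 4 and day 4 replicate 3 were the highest of their groups for both. Without day 1 replicate 4, Dcn rose by 2.70 and Pdgfra by 2.34. The sum of the 16 markers in the table was 1904 to 2748 at day 1 and 981.9 to 3141 at day 4, with Gsn, which stem cells also express, falling 7.27-fold. Pmp22, of myelin, stood at 240.4, 244, 243 and 186 on day 1 and at 50.1, 39.1, 246 and 82.6 on day 4, with day 4 replicate 3 as high as day 1, and its change of −1.50 ± 0.42 did not pass in edgeR (−1.02), in DESeq2 (−0.94), under quantile normalization (−0.58), rescaled (−0.87) or with length-centred values (−0.91). Without that replicate the change of Pmp22 was −2.04 and passed, and those of Dcn and Pdgfra were 1.25 and 1.21 and did not. Of 9 markers of smooth muscle and pericytes 6 rose and 2 fell, and 3 of the 9 needed the day 4 libraries to pass the filter and 1 those of day 1. The pericyte gene Rgs5 rose 92.8-fold and the change was higher than in WT by 3.01 ± 0.66 (adjusted p = 0.00583), and Abcc9 rose 26.2-fold. The 2 that fell were Tagln and Acta2, of smooth muscle. The summed level of the 10 markers in the table was 376.6 to 489 at day 1 and 243.7 to 418.4 at day 4. Neutrophil, lymphocyte, endothelial, tenocyte and Schwann lists had 2, 3, 4, 3 and 3 members tested, of which 1, 1, 1, 1 and 0 rose and 0, 0, 1, 0 and 1 fell, and the red blood cell list had none tested.

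Signals between cells changed with the day. Of 25 chemokines and cytokines 11 rose and 4 fell (17 and 3 rescaled, 16 and 3 with length-centred values). To pass the filter on low values, 7 of the 25 needed the day 4 libraries and 3 those of day 1. Spp1, osteopontin, stood at 80.2, 74.7, 60.8 and 12 on day 1 and at 696, 688, 652 and 911 on day 4, a 12.9-fold rise without overlap, and Il1rn, the interleukin 1 antagonist, rose 83.5-fold and Ccl9 36.6-fold. Il6 stood at 4.92, 7.99, 2.79 and 13.1 on day 1 and at 17.5, 17.1, 43.7 and 6 on day 4 and did not pass (adjusted p = 0.0571), but rose by 1.62 without day 1 replicate 4 and by 1.75 without day 4 replicate 4. Among 27 growth factor genes 13 rose and 7 fell (18 and 4 rescaled), and 6 of the 27 needed the day 4 libraries to pass the filter and 3 those of day 1. Igfbp3 and Igf1, of the insulin-like growth factor axis, rose 14.9-fold and 5.07-fold, and both changes were higher than in WT, by 2.09 ± 0.51 (adjusted p = 0.0123, not passing in the fit over all 24 libraries) and 1.93 ± 0.31 (adjusted p = 0.000497). Igf2 stood at 70.8 ± 7.18 and 78.1 ± 24.9 and did not pass as deposited (adjusted p = 0.795), but passed with a rise of 0.71 rescaled and of 0.75 under quantile normalization. In WT it went from 15.6 ± 2.67 to 69.3 ± 8.43, a difference of −2.01 ± 0.30 (adjusted p = 0.000292). Fgf2, a mitogen of muscle stem cells, fell 15.7-fold, to 0.856 ± 0.954. Of 21 interferon response genes 7 rose and 4 fell (10 and 3 rescaled), and 7 of the 21 needed the day 4 libraries to pass the filter and 4 those of day 1.

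Of 28 genes of the transforming growth factor beta family and its branches 7 rose and 8 fell. The split was 15 and 5 rescaled, 11 and 7 under quantile normalization, and 8 and 12 with length-centred values. The ligands Bmp4 and Bmp6 and the pseudoreceptor Bambi fell 9.14-fold, 5.87-fold and 8.08-fold, and Inhba, of activin, and Bmp1, a protease that matures collagen, rose 6.91-fold and 5.19-fold. Imprinted genes, which act on growth from one parental copy, rose in 9 of 17 cases and fell in 5 (10 and 4 rescaled). The filter on low values was passed by 1 of the 17, H19, only with the day 4 libraries. Another 3, among them Dlk1, passed it only with those of day 1. Peg3, a paternally expressed zinc finger gene of muscle stem cells, stood at 163, 156, 142 and 146 on day 1 and at 1169, 1026, 1028 and 1105 on day 4, a tight and non-overlapping rise of 2.83 ± 0.10 (adjusted p = 1.5e-09) that was higher than the WT change by 1.36 ± 0.13 (adjusted p = 1.28e-06). Mest and H19 rose 8.5-fold and 7.61-fold, and Dlk1, a secreted Notch-like protein, fell from 16.8 ± 6.68 to 0.337 ± 0.304. Of 6 nuclear long noncoding RNAs 4 rose and 1 fell. Neat1, the scaffold of nuclear paraspeckles, rose 6.48-fold. Kcnq1ot1, which lies antisense within Kcnq1, rose 5.7-fold, an uncertain value since the library kit marks no strand. Malat1 rose 2.39-fold as deposited and changed by −1.15 under quantile normalization.

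Among the large falls, that of Neu2, a sialidase of the cytosol, came first of the 12 picked by size. It stood at 370.1, 218, 126 and 234 on day 1 and at 0.196, 0.123, 0.444 and 2.11 on day 4, a log2 fold change of −7.15 ± 0.40 (limma, adjusted p = 2.15e-08). Erfe, the hormone that lowers hepcidin, and Cyp26a1, which breaks down retinoic acid, fell, with log2 fold changes of −5.56 ± 0.30 and −5.25 ± 0.30. The change of each was lower than in WT, with differences of −4.37 ± 0.58, −2.71 ± 0.42 and −4.99 ± 0.56 (adjusted p = 7.99e-05, 0.000357 and 1.39e-05). Rangrf, a factor of nuclear import, and Gstt1, a glutathione transferase, fell 23.2-fold and 24.5-fold. The processed pseudogene Rps12-ps3 also met the size rule, but stood at 116, 0.0411, 0.0341 and 0.0324 at day 4 and shares reads with its parent, so its value is uncertain, and edgeR did not call it (−2.61). Large rises picked by the same rule were those of Ctss, Ttn, Col1a2, Lyz2 and Postn, described above, with Tyrobp, Fcer1g and Laptm5, of white blood cells, and Aspn, a small matrix proteoglycan. Ctss, Postn, Tyrobp, Fcer1g, Laptm5 and Aspn passed the filter on low values only with the day 4 libraries. Neu2, Rangrf and Rps12-ps3 passed it only with those of day 1. The place of these genes among the large changes is thus in part fixed by the filter.

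The KO change was tested against the WT change in 15815 genes. It was higher in KO for 466 (2.95%) and lower for 1084 (6.85%), 9.8% in all. Pthlh, a secreted hormone related to parathyroid hormone, gave the most negative difference of all genes called. It stood at 369.9, 464, 427 and 448 on day 1 and at 89.7, 127, 134 and 84.1 on day 4 in KO, a log2 fold change of −1.99 ± 0.17, against means of 0.79 ± 1 and 84 ± 20.4 in WT, and the difference was −7.66 ± 0.38 (adjusted p = 2e-10). Spock1, a matrix proteoglycan, and Arg2, the mitochondrial arginase, also differed, with KO means of 28 ± 3.08 and 1.08 ± 1.48 for Spock1 against 0.932 ± 0.439 and 2.84 ± 1.16 in WT, and differences of −4.98 ± 0.55 and −3.73 ± 0.69 (adjusted p = 1.08e-05 and 0.0017). Spock1, Arg2 and Cyp26a1 were low in WT at both days. In uninjured KO cells Arg2 stood at 152 ± 31.

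Higher changes in KO included those of Tmem254b and Plac9b, whose near-identical copies Tmem254c and Plac9a make all 4 values uncertain. Plac9b stood at 59.6, 54.7, 49.8 and 73.7 on day 1 and at 60.8, 66.6, 62 and 48.2 on day 4 in KO and at means of 99.96 ± 12.8 and 5.11 ± 1.81 in WT. Its KO groups overlapped, and the difference was 4.11 ± 0.31 (adjusted p = 8.61e-08). Fbh1, a DNA helicase, went from 5.48 ± 2.96 to 12.5 ± 4.62 in KO and from 32.1 ± 7.96 to 7.97 ± 3.78 in WT, a difference of 3.10 ± 0.56 (adjusted p = 0.0014). Its rise in KO alone lost the call when any 1 of 6 libraries was left out.

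**Figure D5:**
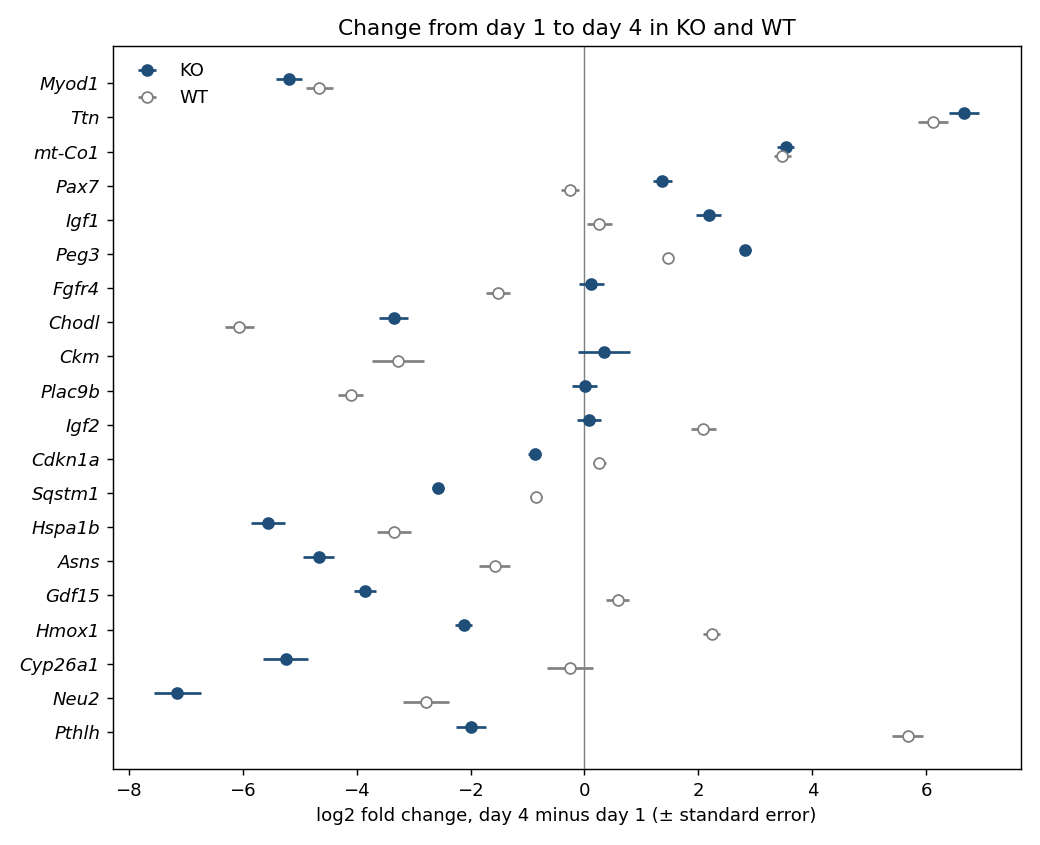
Log2 fold change from day 1 to day 4 in KO (filled) and WT (open) for 20 genes, with the standard error of each change from the fit over 16 libraries (4 per genotype and day). Pthlh, Hmox1 and Gdf15 lie below 0 in KO and above 0 in WT, Pax7 lies above 0 in KO and near 0 in WT, and Myod1, Ttn and mt-Co1 lie close together in both.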

How the data were processed

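RNA was measured in 24 libraries of mouse muscle stem cells, of which the 8 KO libraries of days 1 and 4 were compared and the 8 WT libraries of those days served the test of the difference. Libraries were made with SMART-Seq v4, a kit that marks no strand, and all carry the batch label 1, per the labels. Reads were handled with FastQC, STAR, RSEM and limma on mm39, per the submitters' processing notes, with no versions given there. The deposited values are a per-library normalised signal in which every value, as tested on the table, equals a whole count plus 0.5 over a library scale (100% whole within 0.02), so the authors' read counts could be recovered for depth and for count tests. The table's scaling makes no allowance for gene length. Its library scale was not the counted total. It was 12.73 M against 17.11 M counted reads in KO day 4 replicate 1, and 20.84 against 22.47 M in KO day 1 replicate 2. In WT day 4 replicate 3 it was 17.4 against 13.44 M. The values thus carry a further factor per library, and how it was derived was not tested.

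A gene was kept where 4 or more of the 8 libraries reached a value of 1. The value of the fourth highest library lay between 1 and 1.2 for 333 genes just inside this limit, and 417 genes lay just outside. limma 3.58.1 with a mean-variance trend was run in R 4.3.3 on log2(value + 1), which understates the change of low genes. The difference from WT is the interaction term in a fit over 16 libraries. edgeR 4.0.16 and DESeq2 1.42.0 on recovered counts were alternatives, with other filters, pseudocounts, normalizations, library weights, a replicate block and single libraries left out. Scaling outside the mitochondrial genome and length-centred values were added after seeing the data. Fits were also run on simulated counts with few changed genes and no shift in RNA composition. That setting is unlike these data, and nothing is read from it. Each p-value is adjusted over all genes tested. A count of 0 allows up to 3 counts, 0.168 to 0.288 in normalised units over the 8 libraries, for counting error only.

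Genes named in the text are 13 fixed by name, the 12 largest changes in each direction past the threshold, up to 3 members of each list in its main direction and 2 in the other, the 8 largest differences from WT in each direction, and list members that did not pass. The picks by size also needed a mean of at least 8 and more than 15 reads in the lower group, and list members the 15 reads alone. Hspe1, Top2a, St13, Ptprc and Itgam fall outside the rule and were chosen after their values were seen. The genes, lists and tests were chosen with earlier results of these data known, and lists are described by counts, with no test. Gene names came from the table, and 45 symbols were looked up by identifier. Promoter sequences are RefSeq's on GRCm38.p6, and no coordinate of the authors' build was used.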

Additional observations from a re-analysis of the deposited data

Results flagged for a closer look

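Of 338 sets of 4 KO libraries, 1 per named gene and day, 30 held a library whose gap to the nearest other passed Dixon's critical value as a share of the range. The gap was taken on linear values. A rate of about 1 in 20 by chance holds only for normally spread values, which low counts are not, so the 30 are not read as an excess. All values here are normalised read counts. At day 1, replicate 1 stood apart for Bag2 (46.5, the others 72.6 to 77.3), Cdkn2b (0.139, the others 0.744 to 0.808), E2f8 (1.19, the others 0.024 to 0.134) and Mymk (20.3, the others 0.0261 to 0.168). At day 1, replicate 2 stood apart for Ptprc (0.072, the others 0.0261 to 0.0278). For Ptprc this is 1 read against none, and nothing about that library can be read from it. At day 1, replicate 3 stood apart for Laptm5 (1.43, the others 0.024 to 0.0802) and Psap (61.4, the others 28.6 to 30.6). At day 1, replicate 4 stood apart for Cdkn1c (15.3, the others 4.56 to 6.25), Chrdl2 (132, the others 70 to 75.6), Dcn (250, the others 10 to 40.7), Il1rn (2.81, the others 0.024 to 0.0833), Pdgfra (11.6, the others 0.024 to 0.6), Pmp22 (186, the others 240 to 244), Postn (6.76, the others 0.183 to 1.14) and Slc7a11 (11.4, the others 4.3 to 5.19). At day 4, replicate 1 stood apart for Bag2 (14.4, the others 0.512 to 1.44), Gsn (309, the others 151 to 168), Hey1 (17.5, the others 7.82 to 8.64), Itga7 (556, the others 439 to 458), Rps12-ps3 (116, the others 0.0324 to 0.0411) and mt-Co1 (108855, the others 90632 to 90939). At day 4, replicate 3 stood apart for Dcn (555, the others 78.9 to 117) and Mmp2 (55.5, the others 15.3 to 20.9). At day 4, replicate 4 stood apart for Chodl (50.1, the others 12.8 to 19), Erfe (3.67, the others 1.27 to 1.67), Fos (50.1, the others 23.9 to 27.8), Hmox1 (259, the others 396 to 411), Neu2 (2.11, the others 0.123 to 0.444), Spock1 (3.28, the others 0.102 to 0.589) and Spp1 (911, the others 653 to 696).

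The change from day 1 to day 4 differed between KO and WT, by the interaction test in limma, for 27 of the 28 named genes for which it is printed, and the values are log2 differences, KO change minus WT change. They were above 0 for Cd34 (1.88), Chodl (2.71), Ckm (3.61), Fbh1 (3.1), Fgfr4 (1.65), Igf1 (1.93), Igfbp3 (2.09), Pax7 (1.62), Peg3 (1.36), Plac9b (4.11), Rgs5 (3.01) and Tnnc2 (2.45). They were below 0 for Arg2 (−3.73), Asns (−3.09), Cdkn1a (−1.13), Cyp26a1 (−4.99), Erfe (−2.71), Gdf15 (−4.43), Hmox1 (−4.35), Hspa1b (−2.22), Hspa8 (−0.71), Igf2 (−2.01), Ldha (−0.73), Neu2 (−4.37), Pthlh (−7.66), Spock1 (−4.98) and Sqstm1 (−1.73). These genes were named in part because they differed, so their share is no result.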

How the results depend on the processing

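The count of genes that rose (4000) lay between 3627 and 5595 under all alternatives but a stricter filter on low values, which gave 2618, and no filter and leaving out each library in turn gave 4703 and 3629 to 3869. The count that fell (4399) lay between 3676 and 4792, 4053 to 4341 with a library left out, except after scaling outside the mitochondrial genome (2923). The cause was not tested beyond the construction of each alternative. The differences from WT were less stable. The 466 genes with a higher change in KO became 307 under quantile normalization, 136 in the fit over all 24 libraries and 816 in DESeq2, and 297 to 587 with a library left out, the lowest without WT day 1 replicate 2. The 1084 with a lower change became 611, 576 and, in edgeR, 722, and 843 to 1202 with a library left out. Counts of gene groups in the test of the difference were not repeated under the alternatives. Quantile normalization reversed 6 named results, Lamp2 (0.459), Cdkn1a (0.472), Chrna1 (0.311), Cdh15 (0.808, not past the threshold as deposited), Malat1 (−1.154) and the difference from WT of Hspa8 (0.262). Equal replicate numbers did not pair the libraries, with correlations of their deviations of 0.006, 0.005, −0.001 and −0.029, and the fit with a replicate block called 3925 higher and 4365 lower, and 440 and 1105 for the difference from WT. Lower depth at day 4 limits what a count of 0 can show there, and the spread was larger at day 4 (median SD of 0.472 on the log2 scale) than at day 1 (0.323).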
